A study of Mus musculus with 12 samples.

Results

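The longest genes of the mouse genome were followed in the somatosensory cortex of young mice after ethanol. A gene was included when at least 1 of its listed transcripts covered more than 500 kilobases (kb) of chromosomes 1 to 19, from transcription start to end with introns included. Genes of some neuronal families (glutamate and GABA receptors, voltage-gated channels, axon guidance molecules, synaptotagmins and the like) were left out by name, which removed 20 of the 193 symbols over 500 kb. A further 6 had under 10 counts in the 12 libraries together. The remaining 167 genes, of 24452 symbols listed, are described here. The rule used position, name and total count, not any difference between groups, but it was set with earlier results of these data known. Their median span was 732 kb, from 502 kb for Edil3 to 2271 kb for the receptor phosphatase gene Ptprd, and 39 spanned more than 1000 kb. Of the 167, 158 passed the filter on low counts and were tested, and the other 9 had between 11 and 52 counts in total.

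The 12 libraries were made from total RNA of the somatosensory cortex of male C57BL/6 mice on postnatal day 7, hours after intraperitoneal ethanol or saline. There were 3 libraries in each of 4 groups, named WT saline, WT ethanol, KO saline and KO ethanol. KO mice were p53 knockouts, offspring of heterozygous carriers of the germline allele Trp53tm1Tyj, so p53 was disrupted in every cell of the animal and not in neurons alone. WT mice were wild-type offspring of such matings. The design asked what ethanol does to expression in each genotype, what loss of p53 does under each treatment, and whether the 2 effects depend on each other (Genotype x Treatment interaction). With 3 libraries per group, and with no statement of how mice map to libraries beyond 1 sample each, p-values measure the spread between these samples.

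A gene of this size holds mostly intron, and an RNA polymerase needs many hours to cross it, so its mature transcript appears long after its promoter fires. Very long genes are over-represented among genes of neurons, where many encode cell adhesion molecules, synaptic scaffolds and receptors that set up synapses. Their transcription depends on topoisomerases, which release the torsion ahead of the polymerase, and on elongation factors such as P-TEFb. Several, among them Fhit, Macrod2 and Immp2l, are also known from common fragile sites, where replication of such long units is slow and chromosomes tend to break.

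The promoters of the 4 genes with the smallest p-values for ethanol in WT mice and a RefSeq promoter entry at their start are shown, because the results below turn on how these genes differed between groups. Each line holds the 250 bases before the annotated start, 5′ to 3′ on the strand of the gene (GRCm38.p6, the assembly also called mm10), at chr6:33248878-33249127 for Exoc4, chr14:119138015-119138264 for Hs6st3 and chr5:81021343-81021592 for Adgrl3 on the plus strand, and at chr13:103334493-103334742 for Mast4 on the minus strand. Capitals mark the motifs searched on both strands.
Exoc4: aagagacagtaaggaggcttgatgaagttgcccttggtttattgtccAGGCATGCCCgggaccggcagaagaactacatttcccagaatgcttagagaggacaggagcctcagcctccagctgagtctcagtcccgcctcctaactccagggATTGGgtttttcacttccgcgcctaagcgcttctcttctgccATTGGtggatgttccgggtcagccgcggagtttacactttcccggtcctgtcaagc
Hs6st3: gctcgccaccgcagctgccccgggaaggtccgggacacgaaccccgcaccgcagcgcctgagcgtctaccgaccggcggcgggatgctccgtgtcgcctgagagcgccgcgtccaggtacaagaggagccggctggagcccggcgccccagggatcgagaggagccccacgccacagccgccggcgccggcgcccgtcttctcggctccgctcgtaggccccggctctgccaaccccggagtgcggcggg
Mast4: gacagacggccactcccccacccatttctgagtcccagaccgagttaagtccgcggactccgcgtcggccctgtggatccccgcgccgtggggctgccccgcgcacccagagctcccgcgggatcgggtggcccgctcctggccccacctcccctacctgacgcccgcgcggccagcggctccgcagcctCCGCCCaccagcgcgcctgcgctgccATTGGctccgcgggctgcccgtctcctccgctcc
Adgrl3: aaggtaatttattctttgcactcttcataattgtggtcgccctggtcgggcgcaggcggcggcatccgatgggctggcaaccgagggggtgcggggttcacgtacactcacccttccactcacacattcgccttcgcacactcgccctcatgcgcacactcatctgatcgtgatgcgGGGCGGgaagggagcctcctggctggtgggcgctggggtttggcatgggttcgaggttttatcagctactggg
The motifs were the TATA box (TATAAA), the cyclic AMP response element (TGACGTCA), the CCAAT box (CCAAT), the GC box (GGGCGG) and the p53 half-site, by its degenerate decamer. A CCAAT box was found in the windows of Exoc4, on 2 occasions, and of Mast4, and a GC box in those of Mast4 and Adgrl3. The window of Exoc4 also held 1 match to the p53 half-site, which 7.13% of all 32851 promoters of this length held and 5.41% of the 111 promoters of long genes that could be matched within 100 bases of the start. A TATA box was found in 9.01% of those 111 promoters and in 12.4% of all, and a GC box in 46.8% and 32.7%. The long-gene windows were also richer in CpG, with a median of 15 CpG and 62.8% G or C, against 6 and 52.4% for all promoters. A match is a description of these letters only.

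Library totals ranged from 719735 counts in the library labelled KO ethanol replicate 12 to 17066392 in KO saline replicate 8. The names of WT saline replicate 3 and KO ethanol replicate 12, the 2 shallowest libraries, open with another letter than the rest. The count of Trp53 itself ranged from 3.67 to 26.2 CPM (counts scaled to library size with TMM factors) in WT and from 11.1 to 28.7 in KO libraries. This sum covers the whole gene, including sequence outside the disrupted part, and therefore checks no label. The share of it assigned to its second transcript was 7.01% to 23.1% in WT libraries, 48.3% to 70.6% in 5 KO libraries and 7.01% in KO ethanol replicate 12, which had only 14 Trp53 counts. The label of that library was therefore not checked, it is used as labelled, and the counts over all tested long genes are also given without it. All 10 cortical layer markers were detected, but their summed level was 434 CPM in WT ethanol replicate 4 against 1548 to 3111 CPM in the other libraries, and the 8 choroid plexus markers summed to 5103 CPM there and to 3.34 to 2282 CPM in the others. The 11 detected markers of striatum, thalamus and hippocampus summed to 297 to 715 CPM in the 3 WT ethanol libraries and to 58.1 to 235 CPM in the other 9. The tissue in WT ethanol libraries therefore differed from the rest in its regional markers, and the counts below are also given without single libraries where that changed them by more than 1.5 times.

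Together the 167 genes took 0.630%, 1.11% and 0.752% of the counts in WT saline replicates 1, 3 and 13. They took 1.26%, 1.31% and 1.17% in WT ethanol, 1.12%, 1.29% and 1.27% in KO saline, and 1.05%, 0.743% and 1.09% in KO ethanol libraries (replicates in the order 10, 12, 18). The mean shares were 0.831% ± 0.251, 1.25% ± 0.0706, 1.23% ± 0.0898 and 0.960% ± 0.189 (SD, n = 3 per group). Every WT ethanol and KO saline library lay above the 3 WT saline libraries, and every KO ethanol library lay below the 3 KO saline libraries. The share of counts in all symbols with a mature transcript over 5 kb had the same order of WT saline below WT ethanol and KO saline, with means of 12.7% ± 4.82, 20.6% ± 2.72, 22.1% ± 0.579 and 17.9% ± 6.21 (SD, n = 3 per group). In bulk tissue, fewer cells that express these genes and less RNA of them per cell cannot be told apart.

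**Figure D1:**
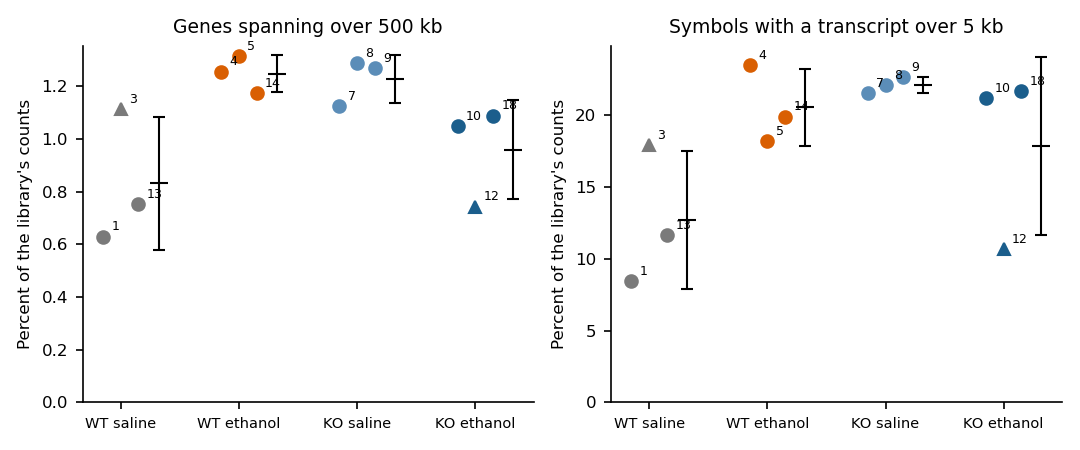
Percent of each library's counts in the 167 genes spanning over 500 kb (left) and in all symbols with a mature transcript over 5 kb (right), by group. Points are libraries with their replicate number, triangles are the 2 libraries named with another first letter, and bars show mean ± SD (n = 3); in the left panel the WT saline points, at 0.630% to 1.11%, all lie below WT ethanol and KO saline.

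The most abundant of the tested genes per kilobase of transcript was Fgf12, which encodes an intracellular modulator of sodium channels, at a mean of 261 CPM per kb. It was followed by Schip1, a protein of the axon initial segment (94.1 CPM per kb), the adhesion molecules Cadm2 (86.2) and Negr1 (79.1), the neuronal catenin Ctnna2 (70.0) and the RNA-binding protein Ralyl (64.2). The longest gene, Ptprd (chr4:75941237-78211895), reached 62.9 CPM per kb. Among the longest, the lipoprotein receptor gene Lrp1b was low, at 1.5 CPM per kb.
Levels of single long genes varied between libraries of 1 group. The IgLON adhesion gene Ntm was at 18.7, 499 and 29.3 CPM in the 3 WT saline libraries. Its levels were 127, 126 and 158 CPM after ethanol, so the group means of Ntm reflect replicate 3. The transcription factor genes Foxp1 (121, 501 and 81.0 CPM) and Nfia (61.7, 256 and 54.8 CPM) had the same outlying library.

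In WT mice, ethanol-treated cortex had higher levels of many long genes. At an unadjusted p under 0.05 (edgeR quasi-likelihood test over 14739 symbols), 39 of the 158 tested long genes were higher and 5 lower after ethanol, against 9.99% higher and 8.36% lower among all symbols. The higher share was 24.7% and the lower 3.16%. Scaled by library size alone, without TMM factors, 70 were higher and 0 lower, against 18.2% and 2.16% of all symbols, whose median was then 0.49. With TMM factors, the median log2 fold change of the long genes was 0.49, against 0.06 over all symbols. Of the 158, 112 (70.9%) were above 0, against 52.7% of all symbols. No long gene passed an adjusted p of 0.05, which 0.0746% of all symbols did. DESeq2 passed 14 long genes and 3.31% of all symbols, and limma on RPKM passed 0 long genes. Of the 11 markers of striatum, thalamus and hippocampus 9 were higher in the same comparison, of the 7 tested red blood cell markers 7 were lower, of the 10 microglia markers 3 were lower (median -1.22), and their part in the result was not tested. Without the 2 libraries named with L, 56 were higher and 12 lower, against 18.9% and 18.4% of all symbols. Of the long genes 35 then passed the adjusted threshold, as did 21.5% of all symbols. Without WT saline replicate 3 alone, 20 of the 158 passed it, as did 7.68% of all symbols. Without WT ethanol replicate 4, 27 were higher and 2 lower, against 5.86% and 3.65% of all symbols, and 0 passed it. Without KO ethanol replicate 12, 43 were higher and 6 lower, and 3 passed it, against 11.9%, 10.4% and 0.540% of all symbols.

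The gene with the smallest p-value was Dlgap2, which encodes a scaffold protein of the postsynaptic density and lies at chr8:14095875-14847686. It was at 2.57, 2.57 and 2.67 CPM in WT saline and at 10.6, 17.0 and 11.1 CPM in WT ethanol libraries. The groups did not overlap (log2 fold change 2.30, SE 0.41, adjusted p = 0.0639 in edgeR). Exoc4 (chr6:33249150-33972930), a subunit of the exocyst complex that tethers secretory vesicles, was at 8.82, 6.68 and 18.5 CPM in WT saline and at 66.1, 50.9 and 37.2 CPM in WT ethanol libraries (2.14, SE 0.42, adjusted p = 0.0830). Its promoter is the first shown above. Cntnap5b, of the neurexin superfamily, was at 1.65, 1.03 and 1.56 CPM and at 13.9, 12.0 and 4.57 CPM (2.79, SE 0.61, adjusted p = 0.104). Hs6st3, which adds sulfate to heparan sulfate chains, had 2, 0 and 10 counts after saline and 128, 47 and 23 after ethanol, so its fitted log2 value of 3.38 (SE 0.78) rests on few counts. The latrophilin gene Adgrl3, an adhesion receptor that binds partners across the synapse, was at 18.7, 20.1 and 22.9 CPM and at 96.3, 61.3 and 38.5 CPM (1.67, SE 0.42). The kinase gene Mast4 was at 9.92, 10.3 and 10.2 CPM and at 104, 18.7 and 21.8 CPM, where replicate 4 carried most of the group mean. All of these genes were separated between the 2 groups in each library, although none passed the adjusted threshold. They were named for small p-values, so the separation adds no support, and it was not counted over all symbols.
The 5 long genes that were lower, named after their values were seen, were the mitochondrial peptidase gene Immp2l (-1.86), the unnamed locus Gm20754 (-1.36), the synaptic calsyntenin Clstn2 (-1.06), Fam19a1 (-0.91), which encodes a small secreted protein, and the metabotropic glutamate receptor Grm7 (-0.76). Clstn2 was at 116 ± 33.7 CPM in WT saline against 55.8 ± 17.4 CPM in WT ethanol libraries (SD, n = 3 per group).

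**Figure D2:**
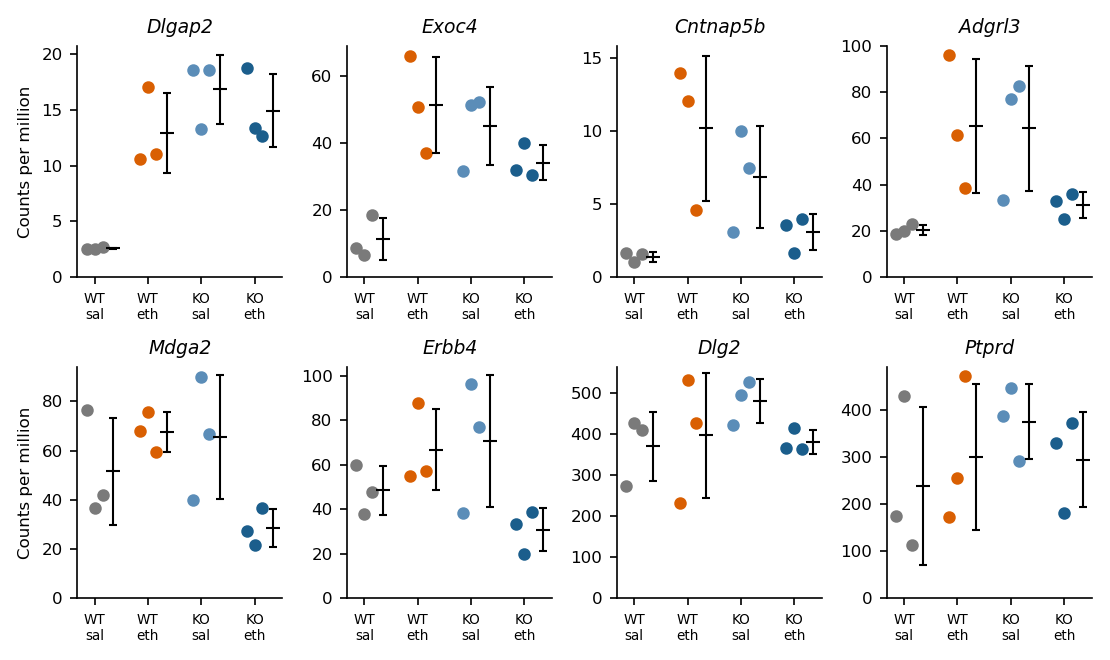
Levels in CPM (TMM-scaled) of 8 long genes in the 12 libraries, by group (sal, saline; eth, ethanol). Points are libraries and bars mean ± SD (n = 3 per group); Dlgap2, Exoc4, Cntnap5b and Adgrl3 are lowest in the WT saline libraries (2.57 to 2.67 CPM for Dlgap2), while Dlg2 and Ptprd overlap between all groups or nearly so.

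In KO mice the direction was the other one. At an unadjusted p under 0.05, 0 long genes were higher and 14 lower after ethanol in edgeR, against 1.15% higher and 2.01% lower among all symbols. The lower share was 8.86%. The median log2 fold change was -0.25 (0.01 over all symbols), and 32 of the 158 (20.3%) were above 0, against 50.7% of all symbols. No long gene and 0.0% of symbols passed an adjusted p of 0.05, and DESeq2 and limma also passed 0 long genes. The count of 14 depended on single libraries. The lower genes numbered 0 without KO saline replicate 8, 4 without KO saline replicate 9 and 2 without KO ethanol replicate 10. They numbered 7 without KO ethanol replicate 12, 7 without replicate 18 and 9 without WT ethanol replicate 4. The last of these libraries enters through the shared estimate of spread. Without KO ethanol replicate 10 or 18, 1 long gene was higher. Of all symbols, 0.133% were lower without KO saline replicate 8 and 0.806% without KO ethanol replicate 10. Without KO ethanol replicates 10 and 18, 2.53% and 2.49% of all symbols were higher. Of the 11 markers of striatum, thalamus and hippocampus, 4 were higher with ethanol in KO mice too (median 0.69), and their part was not tested.
The smallest p-value belonged to Mdga2, a membrane-anchored protein that binds neuroligins, at 39.9, 90.1 and 66.8 CPM in KO saline and 27.2, 21.7 and 36.9 CPM in KO ethanol libraries (log2 fold change -1.17, SE 0.40, unadjusted p = 0.0104 in edgeR). All 3 ethanol libraries lay below all 3 saline libraries, but the gene was named for its p-value, so this adds no support. The neuregulin receptor gene Erbb4 was at 38.6, 96.6 and 77.1 CPM and at 33.6, 20.1 and 38.8 CPM (-1.16, SE 0.40), with an overlap of 1 library. Fstl5, a secreted follistatin-like protein, was at 20.5, 85.9 and 56.8 CPM and at 21.7, 16.7 and 23.9 CPM (-1.36, SE 0.53). The adhesion genes Pcdh9 (-0.95, SE 0.38) and Cntn4 (-1.03, SE 0.42) completed the 5. In these genes KO saline replicate 7 lay near or among the ethanol libraries, while replicates 8 and 9 lay above them.

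Under saline, KO mice had higher levels of long genes than WT mice. The WT saline libraries also served as the reference for the ethanol effect in WT mice, so the 2 comparisons share them. At an unadjusted p under 0.05, 26 long genes were higher and 4 lower in KO mice, against 9.14% higher and 10.5% lower of all symbols. The shares of long genes were 16.5% and 2.53%. Without TMM factors, 54 were higher and 0 lower, against 17.1% and 3.20% of all symbols, whose median was then 0.49. With TMM factors, the median log2 fold change of the long genes was 0.31 (0.04 over all symbols). Dlgap2 passed an adjusted p of 0.05, as did 0.0543% of symbols. It was at 18.6, 13.3 and 18.6 CPM in KO saline libraries against 2.57 to 2.67 CPM in WT saline (2.68, SE 0.41, adjusted p = 0.0376 in edgeR). Across 22 alternative settings its log2 value ran from 1.23 to 3.19 and its adjusted p from 1.18e-06 to 0.226, with 8 settings under 0.05, so Dlgap2 rose in KO mice in the fit as described and missed the threshold in most others. Leaving out WT saline replicate 1 or 13, or any KO saline library, was among the settings that missed it.
Exoc4 was at 31.6, 51.5 and 52.2 CPM in KO saline libraries (1.95, SE 0.42, adjusted p = 0.134). The contactin Cntn5, which joins axonal and synaptic membranes, was at 7.90, 1.54 and 5.35 CPM in WT and 14.2, 32.6 and 19 CPM in KO saline libraries (2.08, SE 0.50). Adgrl3 was at 33.5, 76.8 and 82.7 CPM (1.64, SE 0.42) and Hs6st3 at 3.54, 6.38 and 8.25 CPM (3.58, SE 0.78). Without WT saline replicate 3, 39 long genes were higher and 8 lower, and 25 of the 158 passed the adjusted threshold, against 17.3%, 16.4% and 14.5% of all symbols. Without KO ethanol replicate 12, 33 were higher and 6 lower, and 2 passed it, against 11.3%, 12.4% and 0.486% of all symbols. The 8 red blood cell markers summed to 458 to 2774 CPM in WT saline libraries and to 65.0 to 181 CPM in KO saline libraries. Of 10 microglia markers 4 were lower in KO mice (median -1.20). The part of these differences in the result was not tested.

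After ethanol, long genes were lower in KO than in WT mice. The counts were 1 higher and 25 lower at an unadjusted p under 0.05 in edgeR, or 0.633% and 15.8% of the 158, against 0.977% and 2.26% of all symbols. The median was -0.37 (-0.03 over all symbols). Without WT ethanol replicate 4 the counts were 3 higher and 12 lower (0.852% and 0.986% of all symbols), without WT ethanol replicate 5 they were 0 and 16 (0.886% and 1.67%), and without KO ethanol replicate 10 they were 1 and 10 (1.53% and 0.760%). Without KO ethanol replicate 12 they were 0 and 18 (1.14% and 1.58%). An adjusted p under 0.05 was reached by 0 long genes and by 0.0% of symbols, and DESeq2 and limma passed 0 long genes. Galnt13, which starts mucin-type sugar chains, was at 35.4, 30.2 and 19.3 CPM in WT and 7.42, 6.69 and 10.9 CPM in KO ethanol libraries (-1.71, SE 0.43, unadjusted p = 0.00136 in edgeR). Foxp2, a transcription factor of deep cortical layers and striatum, was at 173, 43.6 and 54.6 CPM and at 14.3, 23.4 and 28.2 CPM (-2.05, SE 0.64). The diacylglycerol kinase gene Dgkb, abundant in striatum, was at 51.8, 61.5 and 39.0 CPM and at 13.7, 20.1 and 21.4 CPM (-1.48, SE 0.46), and Ptprg, a receptor phosphatase, at 165, 132 and 79.7 CPM and 62.5, 38.4 and 58.0 CPM (-1.22, SE 0.39). All 4 were separated between the groups in every library, but they were named for the smallest p-values of this comparison, so this adds no support. The markers of striatum, thalamus and hippocampus were higher in the same WT ethanol libraries, as given above, and their part was not tested. The 1 long gene that was higher in KO mice was Clstn2 (1.00).

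The difference between the 2 ethanol effects was tested as the Genotype x Treatment interaction. It was negative at an unadjusted p under 0.05 for 40 long genes and positive for 2, or 25.3% and 1.27% of the 158, against 7.67% and 7.5% of all symbols. The median interaction was -0.80 on the log2 scale (-0.11 over all symbols). Without KO saline replicate 8, 24 were negative and 2 positive (4.76% and 5.35% of all symbols), and without KO saline replicate 9, 25 and 1 (4.59% and 5.21%). Without KO ethanol replicate 12, 33 were negative and 2 positive (6.29% and 3.58%). Over all 158 tested long genes, 92 had a fold change above 0 in WT and below 0 in KO mice. The same count was not made over all symbols, so the 92 have no share to be read against. No long gene and 0.0% of symbols passed an adjusted p of 0.05 in edgeR. DESeq2 passed 7 long genes and 1.73% of all symbols. The smallest p-values were those of Adgrl3 (-2.68, SE 0.59, adjusted p = 0.228), Cntnap5b (-3.78, SE 0.84), Dlgap2 (-2.45, SE 0.56), Exoc4 (-2.56, SE 0.59) and Dgkb (-2.63, SE 0.64). Adgrl3 went from 20.6 ± 2.11 to 65.4 ± 29.1 CPM with ethanol in WT mice, and from 64.3 ± 26.9 to 31.4 ± 5.60 CPM in KO mice (SD, n = 3 per group). Dlgap2 went from 2.61 ± 0.0592 to 12.9 ± 3.60 CPM in WT mice and from 16.8 ± 3.06 to 14.9 ± 3.30 CPM in KO mice, with the lowest levels in the WT saline libraries. On the deposited RPKM scale, the means of Dlgap2 in the same order were 0.757, 2.35, 3.13 and 3.15.

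**Figure D3:**
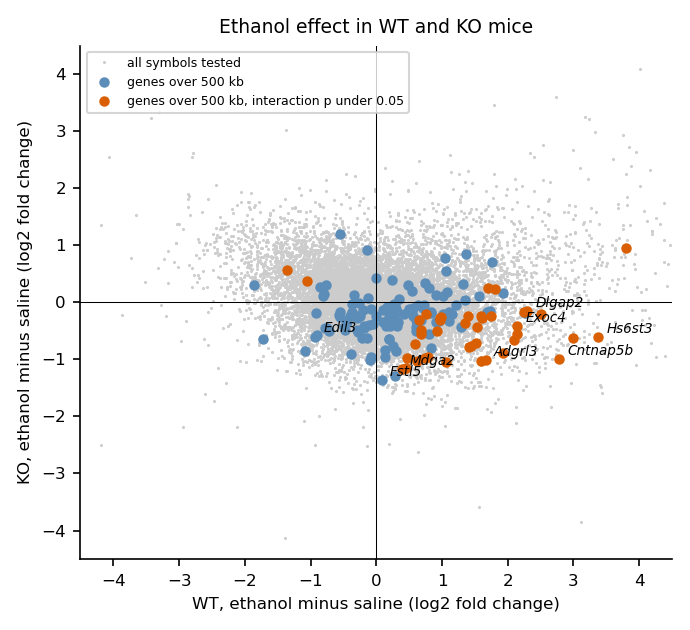
Ethanol effect in WT mice (x axis) against that in KO mice (y axis), as log2 fold changes, for all 14739 symbols tested (grey) and for the 158 long genes, orange where the interaction had an unadjusted p under 0.05. Long genes lie mostly to the right of 0 and below 0, with medians of 0.49 in WT and -0.25 in KO mice.

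The long genes were grouped by what they encode. The counts in each group are at an unadjusted p under 0.05, which 9.99% of all symbols passed as higher and 8.36% as lower with ethanol in WT mice, and 2.01% as lower in KO mice. The groups are small, several counts below lie near these shares, and neither a difference between groups nor one from all symbols was tested. Among 11 IgLON and contactin family adhesion molecules, all tested, 3 were higher with ethanol in WT mice and 2 lower in KO mice, with medians of 0.38 and -0.65. This group holds some of the most abundant long genes, and Negr1 (527 ± 267, 585 ± 389, 264 ± 91.0 and 200 ± 43.7 CPM, in the order WT saline, WT ethanol, KO saline, KO ethanol, SD, n = 3 per group) and Opcml (236 ± 97.0, 271 ± 43.5, 431 ± 60.1 and 274 ± 27.4 CPM) spread widely within groups. Of 15 synaptic organizers, 4 were higher and 1 lower in WT mice (median 0.61) and 2 lower in KO mice (-0.35). The presynaptic Nrxn3, a receptor for neuroligins, was at 86.4, 89.0 and 54.4 CPM in WT saline and 116, 133 and 110 CPM in WT ethanol libraries without overlap (0.65, SE 0.31), while Adgrb3, a receptor that binds C1q-like proteins, was at 161 ± 25.9 and 173 ± 59.0 CPM.
Of the 6 cadherins and catenins, 5 were tested. Of these, 1 was higher in WT and 1 lower in KO mice, and Ctnna2 was at 221 ± 69.5, 265 ± 8.83, 275 ± 67.8 and 235 ± 12.1 CPM in the 4 groups. Of 12 receptor kinases, phosphatases and ligands, 3 were higher in WT mice (median 0.48) and 1 lower in KO mice (-0.27). Ptprd was at 174, 428 and 113 CPM in WT saline and 173, 256 and 471 CPM in WT ethanol libraries (0.33, SE 0.52). Of 12 synaptic scaffold and active zone proteins, 4 were higher in WT mice (median 0.44) and 0 lower in KO mice. Dlg2, the postsynaptic scaffold PSD-93 and the long gene with the most counts, was at 370 ± 83.8, 397 ± 152, 481 ± 53.9 and 381 ± 28.8 CPM in the 4 groups (0.10, SE 0.38, for ethanol in WT mice).
Of 13 other receptors, channels and their partners, 5 were higher and 1 lower in WT mice (median 0.69). Dpp6, a subunit that modifies A-type potassium channels, was at 50.3, 118 and 112 CPM after saline and 231, 123 and 171 CPM after ethanol (0.91, SE 0.37). Grm5, a metabotropic glutamate receptor, was at 241 ± 91.0 CPM in KO saline and 121 ± 47.5 CPM in KO ethanol libraries (-0.97, SE 0.43). In cyclic nucleotide, lipid and kinase signaling, 6 of 13 were higher in WT mice (median 0.97) and 1 was lower in KO mice. The cyclin-dependent kinase Cdk14 was at 68.6 ± 10.4 and 134 ± 60.6 CPM in WT saline and ethanol libraries (0.97, SE 0.39), while Plcb1, a phospholipase downstream of G proteins, was at 140 ± 40.2 and 134 ± 41.5 CPM.
Of 11 transcription factors and chromatin proteins, 3 were higher in WT mice (median 0.32) and 0 were lower in KO mice. Of 3 RNA-binding proteins, Rbms3 was higher in WT mice (1.61, SE 0.57), with 86.3 CPM in replicate 4 against 20.8 and 23.0 CPM in replicates 5 and 14. In the group of fragile-site genes and cellular enzymes, 2 of 13 were higher and 1 lower in WT mice (median 0.29). There the sorting protein gene Vps13b was at 29.0, 21.6 and 26.2 CPM and at 48.2, 40.7 and 41.6 CPM (0.76, SE 0.31), while the hydrolase Macrod2, which removes ADP-ribose, was at 46.6 ± 29.6 and 38.2 ± 14.2 CPM and Fhit at 12.2 ± 9.72 and 5.79 ± 0.209 CPM. Matrix proteins, proteoglycans and glycosyltransferases had 1 of 13 higher in WT mice and 2 lower in KO mice, the CUB, LDL and sorting receptors 1 of 7 higher, and cytoskeletal and trafficking proteins 1 of 7 higher. Of the 27 long genes in none of these lists, 23 were tested, and 4 were higher and 2 lower in WT mice.

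Span itself was compared over all symbols tested. For ethanol in WT mice, 7.75% of 12189 symbols spanning under 100 kb were higher at an unadjusted p under 0.05, 21.7% of 1187 at 100 to 200 kb, 23.4% of 657 at 200 to 500 kb and 24.7% of the 158 long genes. The medians were -0.01, 0.49, 0.53 and 0.49. The share that was higher thus differed most between the classes under and over 100 kb, and the 3 longer classes lay close together. Within the long genes, 18.9% of the 37 tested genes over 1000 kb and 26.4% of the 121 others were higher. For ethanol in KO mice, 1.66%, 2.86%, 2.74% and 8.86% were lower in the 4 classes, and the medians were 0.06, -0.19, -0.20 and -0.25. For KO against WT after ethanol, 1.60%, 3.29%, 6.09% and 15.8% were lower. Among long genes, Spearman's rho between span and log2 fold change was 0.10 in WT and -0.23 in KO mice (n = 158 genes, which share their libraries). Just inside the limit, Edil3 (501754 bases), Car10 (502462) and Dock1 (502961) had log2 fold changes of -0.93, 1.05 and 1.42 for ethanol in WT mice. Just outside it, Prkce (490135 bases) and Dnm3 (490729) had -0.71 and 0.28, and Abca13 was not tested.

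**Figure D4:**
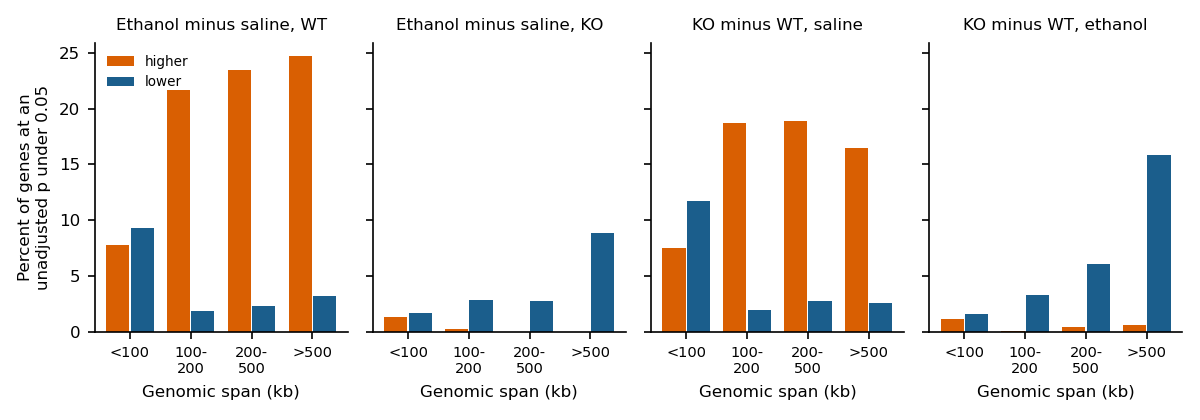
Percent of tested symbols that were higher (orange) or lower (blue) at an unadjusted p under 0.05 in each class of genomic span, for 4 comparisons. Bars start at 0; for ethanol in WT mice the higher share is 7.75% under 100 kb and 21.7% to 24.7% in the longer classes.

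Long genes also have long mature transcripts. The median transcript length was 4647 bases for the 155 tested long genes with an annotated length, against 2957 for all symbols, with 16 against 9 exons and a GC content of 47.5% against 50.4%. Symbols spanning under 100 kb also differed by transcript length. For ethanol in WT mice their median log2 fold change was -0.58 with a transcript under 2 kb, 0.05 at 2 to 4 kb, 0.36 at 4 to 6 kb and 0.53 over 6 kb. The long genes had -0.34, 0.30, 0.62 and 0.62 in the same classes. In the class over 6 kb, 30% of 50 long genes and 19.9% of 969 short-span symbols were higher. For KO against WT under saline, the corresponding medians over 6 kb were 0.58 and 0.67, with 22.0% and 23.6% higher. For ethanol in KO mice they were -0.26 and -0.32, but at 2 to 4 kb they were -0.24 and 0.03, and 10.9% of 46 long genes against 1.06% of short-span symbols were lower.
When the dependence of each library on GC content and on the length of the transcript was taken out, the medians of the long genes changed sign in all 5 comparisons. They were -0.09 for ethanol in WT mice, 0.12 in KO mice, -0.15 and 0.03 for KO against WT under saline and after ethanol, and 0.14 for the interaction. The medians of all symbols moved too, to -0.19, 0.17, -0.18, 0.18 and 0.31 from 0.06, 0.01, 0.04, -0.03 and -0.11. The long-gene medians stayed above those of all symbols for ethanol in WT mice and KO against WT under saline, and below them otherwise. The signs alone thus do not compare long genes with all symbols, and these differences were not tested. The counts became 18 higher and 13 lower, of 155 genes, for ethanol in WT mice (6.06% and 9.79% of all symbols). In KO mice they were 0 and 1 (0.994% and 0.418%). For KO against WT they were 13 and 24 under saline (5.03% and 9.27%) and 1 and 9 after ethanol (1.62% and 1.09%). The interaction was positive for 14 and negative for 15 (7.29% and 2.85%). Dlgap2, Exoc4, Cntnap5b and Mdga2 kept their direction. Dlgap2 had log2 fold changes of 1.70 for ethanol in WT mice and 2.05 for KO against WT under saline in that fit, Exoc4 1.51 and 1.30, Cntnap5b 2.38 and 1.73, and Mdga2 -0.76 for ethanol in KO mice. Vps13b, with one of the longest mature transcripts, changed to -0.24 for ethanol in WT mice.

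**Figure D5:**
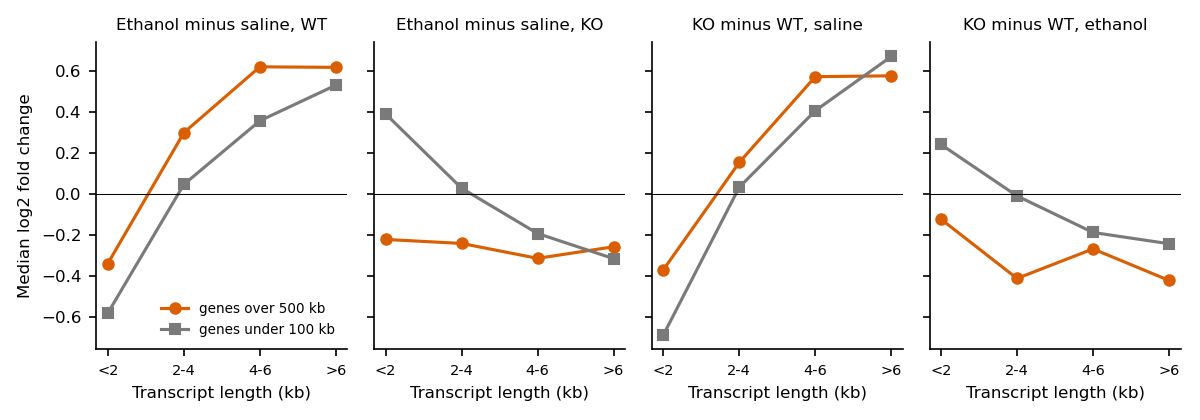
Median log2 fold change by length of the mature transcript for genes spanning over 500 kb (orange) and under 100 kb (grey), in 4 comparisons. For ethanol in WT mice both lines are higher at longer transcripts, from -0.34 and -0.58 under 2 kb to 0.62 and 0.53 over 6 kb, and for ethanol in KO mice the grey line runs from 0.39 to -0.32.

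Of the 167 genes, 127 were listed only with transcripts over 500 kb, and 40 also with shorter ones. In those 40, the share of counts assigned to the long transcripts was 41.3% to 47.5% in WT saline, 43.9% to 49.1% in WT ethanol, 46.2% to 47.8% in KO saline and 40.3% to 44.2% in KO ethanol libraries. Every KO ethanol library was below every KO saline library, while the WT groups overlapped. In Ralyl, 15.2%, 9.81% and 32.3% of the counts were in long transcripts in WT saline libraries and 45.6%, 39.6% and 37.1% in WT ethanol libraries, without overlap. In Dlg2 the values were 27.2%, 4.94% and 31.3% against 44.9%, 53.1% and 39.2%, and in Cntnap2 16.7%, 34.2% and 36.7% against 69.0%, 40.1% and 55.1%. In all, every WT ethanol library lay above every WT saline library by more than 0.1 percentage points in 13 of the 40 genes, and below in 4, which were Schip1, Nav2, Asic2 and A830018L16Rik (named after their values were seen). Asic2 had 88.6%, 80.4% and 85.9% against 50.9%, 46.9% and 73.3%, and Nav2 75.6%, 75.9% and 93.5% against 58.2%, 69.9% and 58.1%. Schip1 had 78.8%, 82.2% and 33.5% against 9.74%, 17.7% and 17.4%, and reads of its long transcripts cannot be told apart from those of the overlapping read-through locus Gm21949. Counts were split between transcripts by the quantifier's estimate, and these shares were not tested. In some genes the same share recurred in different libraries. It was 0.151% for Fgf14 and 0.0812% for Lingo2 in both WT saline replicate 3 and KO ethanol replicate 12, and both genes are among the 13. The same count was not made for genes outside the 40, so 13 and 4 have no share to be read against. With long transcripts alone counted for the 40 genes, 156 long genes were tested. For ethanol in WT mice, 45 of these were higher and 7 lower, against 10.0% and 8.37% of all symbols.

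The machinery that long genes depend on was examined in a list of 36 genes, all tested. For ethanol in WT mice 5 were higher and 1 lower at an unadjusted p under 0.05 (median 0.26), in KO mice 0 and 3 (-0.08), and for KO against WT under saline 7 and 1 (0.43). The 5 higher in WT mice are 13.9% of the list, near the 9.99% of all symbols, and 2.01% of all symbols were lower in KO mice. For KO against WT under saline, the 7 are 19.4% of the list, and 9.14% of all symbols were higher and 10.5% lower. The interaction was negative for 8 and positive for 0, against 7.67% and 7.5% of all symbols. None passed an adjusted p of 0.05 in edgeR. DESeq2 passed 2 for ethanol in WT mice and 4 for KO against WT under saline, and 3.31% and 4.86% of all symbols. The 3 that were lower in KO mice after ethanol were the topoisomerase genes Top1 (-0.90, SE 0.41), Top2a (-1.23, SE 0.53) and Top2b (-1.01, SE 0.43). Top1, whose product releases torsion during transcription, was at 57.0 ± 25.7, 77.8 ± 15, 124 ± 43.0 and 65.8 ± 16.3 CPM in WT saline, WT ethanol, KO saline and KO ethanol libraries (SD, n = 3 per group). Top2b, the neuronal type II enzyme, was at 303 ± 162 CPM in KO saline and 151 ± 12.3 CPM in KO ethanol libraries. In WT mice Ccnt2, a cyclin of P-TEFb (1.66, SE 0.49), the transcription kinase Cdk13 (1.16, SE 0.33) and the histone methyltransferase Setd2 (1.27, SE 0.39) were higher after ethanol, and Supt4a, an elongation factor, was lower (-1.31, SE 0.54).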

How the data were processed

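Stranded total RNA-seq reads of 12 libraries were filtered for quality, aligned to mm10 with Bowtie2 within TopHat and assigned to RefSeq transcripts in Partek Flow by the authors. Cortex was taken by laser microdissection for some animals and by hole punch for the rest, and which libraries these were is not given in the sources used here. Tool versions and counting settings are not given in the sources used here. The deposited estimated counts, which need not be whole, were summed per symbol and rounded. The deposited RPKM values had been quantile normalized, by their values, and served only as an alternative. Symbols were filtered with filterByExpr and scaled by TMM, and the 4 groups were fitted together with the edgeR 4.0.16 quasi-likelihood test (R 4.3.3). Benjamini-Hochberg adjustment covered all 14739 symbols in each of 5 comparisons. DESeq2 1.42.0, limma 3.58.1 and the other alternatives are listed in the closing section. Levels are in CPM after TMM. SD is over 3 libraries, and SE belongs to the fitted log2 difference. Transcript lengths and GC content came from GENCODE of the same assembly, and promoters from RefSeq. Gene coordinates are those of the longest listed transcript.

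The members and the lists of genes by role were chosen with earlier results of these data known. The genes named were the 12 longest, the 10 highest per kilobase of transcript, the 5 with the smallest p-value in each comparison, those with an adjusted p under 0.05, the 3 with the most counts in each role list, those next to the 500 kb limit, and Trp53. On simulated counts for ethanol in WT mice (14582 symbols), 34 of 100 genes changed 4-fold and 83 of 100 changed 8-fold passed an adjusted p of 0.05, with 1 false call. The changed genes were taken from those with more counts, and each gene was drawn on its own. Genes with few counts and the dependence of libraries on transcript length were thus not represented. The symbol 1-Mar joins 2 genes through a date conversion in the files, and reads of Gm21949 and Schip1, and of clustered protocadherin loci, can be shared. Some results of single genes are not reported here.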

Additional observations from a re-analysis of the deposited data

Results flagged for a closer look

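In Cntn5, a contactin gene, every WT ethanol library lay above every WT saline library, and every KO ethanol library lay below every KO saline library. The means were 4.93 and 14.1 CPM in WT saline and ethanol libraries and 22.0 and 12.6 CPM in KO saline and ethanol libraries. The interaction was -2.20 on the log2 scale (SE 0.69, adjusted p = 0.25 in edgeR).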

How the results depend on the processing

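No paired analysis was possible because the groups share no replicate numbers. Long genes at an unadjusted p under 0.05 numbered 44 for ethanol in WT mice, 14 for ethanol in KO mice, 30 for KO against WT under saline, 26 for KO against WT after ethanol and 42 for the interaction, with medians of 0.49, -0.25, 0.31, -0.37 and -0.80. Without TMM factors, the first count was 70 (median 0.92), the third 54 (0.82), and the median interaction -1.23, while the median of all symbols was 0.49, 0.49 and -0.52 in these comparisons. Of all symbols, 18.2% were then higher and 2.16% lower in the first comparison, and 17.1% and 3.20% in the third. With 10 or more counts in every library, 99 long genes were tested, and the counts of 26 for ethanol in WT mice, 17 for KO against WT after ethanol and 27 for the interaction were 26.3%, 17.2% and 27.3% of them, against 27.8%, 16.5% and 26.6% of the 158. Of all symbols, 9.10% and 10.9%, 1.30% and 2.16%, and 11.2% and 8.38% were higher and lower in these comparisons. Without the 2 libraries named with L the counts were 68 for ethanol in WT mice and 56 for KO against WT under saline. These were 43.0% and 35.4% of the 158. Of all symbols, 18.9% were then higher and 18.4% lower in the first comparison, and 19.5% and 19.6% in the second. With only the groups compared in the fit, 28 passed for ethanol in WT mice, and the interaction, which needs all groups, was not refitted. The 28 were 17.8% of those tested, against 6.51% higher and 6.68% lower of all symbols. With the first letter of the library name as a covariate, 6 passed for ethanol in KO mice. That was 3.80% of the 158, against 0.482% higher and 1.07% lower of all symbols. By limma on log2(RPKM + 1), 26, 7, 19 and 23 passed for ethanol in WT mice, ethanol in KO mice, KO against WT under saline and the interaction, with medians of 0.23 in WT mice, 0.13 under saline, -0.20 after ethanol and -0.41 for the interaction. These counts were 16.5%, 4.43%, 12.0% and 14.6% of the 158. Of all symbols, 6.33% and 5.34%, 1.55% and 2.35%, 6.70% and 5.49%, and 5.07% and 6.44% were higher and lower. For ethanol in KO mice and under saline, long genes lay near all symbols in the 2 directions together. By limma on log2(RPKM + 0.1), 26, 7 and 22 passed for ethanol in WT mice, ethanol in KO mice and the interaction, with medians of 0.33 in WT mice and -0.54 for the interaction. These were 16.5%, 4.43% and 13.9% of the 158. Of all symbols, 6.40% and 4.72%, 1.45% and 2.29%, and 4.73% and 6.46% were higher and lower.

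With the dependence on transcript length and GC content taken out, 1 passed for ethanol in KO mice and 10 for KO against WT after ethanol. The medians were -0.094, 0.12, -0.15, 0.025 and 0.14, against -0.19, 0.17, -0.18, 0.18 and 0.31 over all symbols. Of single genes, Vps13b then had -0.24 for ethanol in WT mice, -0.15 for KO against WT under saline and 0.52 for the interaction, and the interaction was 0.061 for Erbb4, 0.18 for Ptprg and 0.0096 for Cdk14. Leaving out 1 library at a time gave 29 to 59, 0 to 18, 20 to 47, 11 to 33 and 26 to 48 passing genes, and medians of 0.37 to 0.55, -0.32 to -0.23, 0.15 to 0.44, -0.46 to -0.25 and -0.86 to -0.70. The low counts came without WT ethanol replicate 4 (29), KO saline replicate 8 (0), KO saline replicate 9 (20), KO ethanol replicate 10 (11) and KO saline replicate 8 or 9 (26). Of all symbols, 5.86% and 3.65%, 0.186% and 0.133%, 6.23% and 5.27%, and 1.53% and 0.760% were higher and lower in the first of these, in order. For the interaction they were 5.35% and 4.76% without KO saline replicate 8, and 5.21% and 4.59% without replicate 9. The cause of these differences was not tested. Of all other values of named genes, 253 missed the unadjusted threshold under an alternative and 1218 did not. Few counts limit the low genes most, above all in the library of 719735 counts.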

Other observations

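The 20 genes over 500 kb that were left out by family name had 8 higher and 0 lower for ethanol in WT mice at an unadjusted p under 0.05 (9.99% and 8.36% of all symbols), with a median log2 fold change of 0.68, and 0 higher and 1 lower in KO mice (1.15% and 2.01%), with a median of -0.23. Among the tested long genes, Spearman's rho between GC content of the transcript and log2 fold change was 0.24 for ethanol in WT mice and 0.42 in KO mice (155 genes, which share their libraries). The summed levels of the other marker lists spanned 5712 to 11476 CPM over the 12 libraries for 12 neuron markers, 1550 to 3791 CPM for 10 astrocyte markers, 236 to 844 CPM for 10 oligodendrocyte lineage markers, 124 to 738 CPM for 10 microglia markers and 268 to 558 CPM for 10 endothelial and mural markers.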
